A study of Mus musculus with 2 samples.

Results

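Pericytes of the mouse preoptic area were taken as the cells with at least 4 unique molecular identifiers (UMIs, each 1 counted RNA molecule) summed over Vtn, Kcnj8, Abcc9 and Pdgfrb. They also had at most 3 UMIs each of the smooth muscle pair Acta2 and Tagln, the endothelial pair Cldn5 and Ly6c1 and the neuronal pair Snap25 and Syt1. They were chosen by these measured values, 190 cells of 17584 that had 500 genes or more and a mitochondrial share of UMIs below 20%. The tissue came from C57BL/6J mice of 9 to 10 weeks, with males and females pooled, and cells were isolated by Act-seq, a dissociation method that includes a transcription blocker, and counted on the 10x Genomics platform. The SD library came from mice deprived of sleep for 6 h, and the SD+RS library from mice deprived for 6 h and then left to recover for 2 h. Both groups had therefore been deprived, each group is 1 library, and the number of mice pooled is not stated in the labels. A difference between the libraries thus has no replicate check, and every interval below is a 95% interval that covers counting error only.

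Pericytes are mural cells embedded in the basement membrane of capillaries, where they face the endothelium and share PDGF-B to Pdgfrb signalling with it. They are known in the brain for maintaining the blood-brain barrier, for slow control of capillary diameter and for transport of amino acids and other solutes. Smooth muscle cells are the mural cells of arterioles and venules, and they carry the contractile apparatus that most capillary pericytes lack.

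The SD library gave 132 pericytes, 1.34% (1.12 to 1.58) of its 9875 kept cells, and the SD+RS library 58, 0.752% (0.572 to 0.972) of 7709. The proportion was lower in SD+RS by more than counting error, but tissue dissociation was done once per library, so dissociation yield and treatment cannot be told apart. The pericytes were shallow cells: the median was 2564 UMIs (760 to 27632) in SD and 2309.5 UMIs (937 to 6449) in SD+RS, over a median of 1454 and 1334 genes. Mitochondrial genes made up a median of 4.11% and 3.54% of their UMIs. The libraries shared 23 cell barcodes, of which 0 belonged to a pericyte. Cells with Xist UMIs and no Y-linked UMIs made up 69.9% of the sexed pericytes in SD and 86.7% in SD+RS. Over all kept cells this share was 49.8% and 79.3%, and in neurons 39.4% and 78.4%. The sex mix thus differed between the whole libraries, and it cannot be told apart from treatment.

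The rule left out many mural-looking cells. Among cells with at least 4 UMIs of the rule genes, 246 of 454 in SD (54.2%) and 159 of 275 in SD+RS (57.8%) had over 3 endothelial UMIs, and a smaller number, 81 and 79, had over 3 smooth muscle UMIs. The 190 pericytes are therefore the cells with little endothelial RNA, not all cells with pericyte transcripts. Below the threshold, Rgs5, a regulator of G protein signalling known as a mural cell marker that the rule did not use, was found in 2.21% of the 497 SD cells and 0.676% of the 296 SD+RS cells with 1 to 3 UMIs of the rule genes. Just above it, the 3 SD and 2 SD+RS cells with 4 to 7 UMIs had no Rgs5 UMI. Next, Rgs5 was found in 8 of 12 SD cells with 8 to 18 UMIs, but in 0 of 4 SD+RS cells with 8 to 14 UMIs. At 20 UMIs or more, where 117 SD and 52 SD+RS cells lay, 90.6% and 90.4% of cells had Rgs5.

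Of the rule genes, Vtn (chr11:78499091-78502324 on mm10), which encodes the matrix protein vitronectin, was found in every pericyte and supplied 87.9% of the rule genes' UMIs in SD and 88.4% in SD+RS. Kcnj8 and Abcc9, which encode the pore and the sulfonylurea receptor of an ATP-sensitive potassium channel and lie beside each other on chromosome 6 (142564837-142571614 and 142587862-142702315), were found in 76.5% and 62.9% of SD pericytes. In SD+RS these were 72.4% and 63.8%. Pdgfrb, the PDGF receptor that pericytes need for recruitment to vessels, was found in 87.1% and 84.5%. All 4 genes were found together in 68 SD and 33 SD+RS pericytes, while 24 and 13 had neither channel gene.

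The label held for most of these cells but not for all. With at least 10 UMIs of another class's markers taken as the limit, 26 of the 132 SD pericytes and 13 of the 58 SD+RS pericytes carried RNA of another class. Because many were deep, they supplied 39.7% and 32.0% of all pericyte UMIs. The largest group, 12 cells in SD and 11 in SD+RS, carried perivascular fibroblast markers. Those fibroblast-marker cells had Vtn at 8614 and 6334 CPM (the counts of a gene per 1000000 UMIs) but 0 UMIs of Rgs5 and of Atp13a5, a P-type ATPase gene used as a pericyte marker. Their level of Ptgds, prostaglandin D synthase, was 49611 and 33344 CPM, and of Dcn, decorin, 11150.0 and 10184 CPM. They included 10 of the 24 SD and 10 of the 13 SD+RS cells without either channel gene. Oligodendrocyte markers reached 10 UMIs in 4 SD pericytes, up to 2029 UMIs in a cell, and in 0 SD+RS pericytes. Since this mixture differed between the libraries, values below are given for the remaining 106 SD and 45 SD+RS cells, called unmixed pericytes here, with the values over all 190 beside them where the pair differs. The unmixed cells held 260454 and 99638 UMIs. A limit in UMIs removes deep cells more readily, and it was set after the mixture had been seen.

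In unmixed pericytes the fibroblast markers summed to 346 CPM in SD and 251 CPM in SD+RS, against 2071 and 3575 over all pericytes. Col1a1 and Lum were at 0 in both unmixed sets, and Col3a1 and Pdgfra also in SD+RS. The 5 oligodendrocyte markers summed to 242 and 141 CPM there, against 8875 and 136 over all pericytes, and microglial markers to 11.5 and 0. Astrocyte markers summed to 23.0 and 10.0 CPM and neuronal markers to 227 and 110 CPM in unmixed cells. These sums cover only the 3 to 6 markers per class that defined the removal, so they were bound to be low. In unmixed cells a longer list of 14 fibroblast genes summed to 2265 and 2148 CPM, against 5537 and 10253 over all pericytes. A list of 14 neuron genes summed to 1751 and 1315 CPM, against 2087 and 1746. Lists of 12 astrocyte and 10 microglial genes stayed low, at 157 and 80.3 CPM and at 15.4 and 0 CPM. How much of this RNA came from other classes was not tested.

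Of the pericyte markers that the rule did not use, Rgs5 (chr1:169655501-169695813) stood at 4945 CPM (4679 to 5223) in SD and 5149 CPM (4713 to 5614) in SD+RS, and was found in 97.2% and 100% of unmixed cells. Other markers were found in fewer of them, with Notch3 in 73.6% and 84.4%, Ifitm1 in 80.2% and 88.9% and Art3 in 61.3% and 80% of cells. Among the 78 SD and 27 SD+RS unmixed pericytes with at least 2000 UMIs, the expected share with Rgs5 after thinning every cell to 2000 UMIs was 99.99% and 99.97%. The same share was 0.189% and 0.123% in neurons, which lack Rgs5 and had a median of 22410 and 21869.5 UMIs before thinning. In smooth muscle cells it was 67.4% and 73.8%, and in endothelial cells 50.2% and 47.3%. Atp13a5 (chr16:29231851-29378732) stood at 1401 and 1596 CPM. Higd1b and Ndufa4l2, hypoxia-related mitochondrial proteins enriched in pericytes, stood at 1670.2 and 2288 CPM and at 1893 and 2449 CPM. P2ry14, a receptor for UDP-glucose, stood at 1413 and 1465 CPM. Summed over the 33 markers of this list, a single unmixed cell held between 1247 and 47527 CPM in SD and between 21595 and 46690 CPM in SD+RS, with medians of 28326 and 32617 CPM. The lower quartile was 23981 CPM in SD and 29793 CPM in SD+RS, so most unmixed cells carried the marker list at a level near the median.

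**Figure D1:**
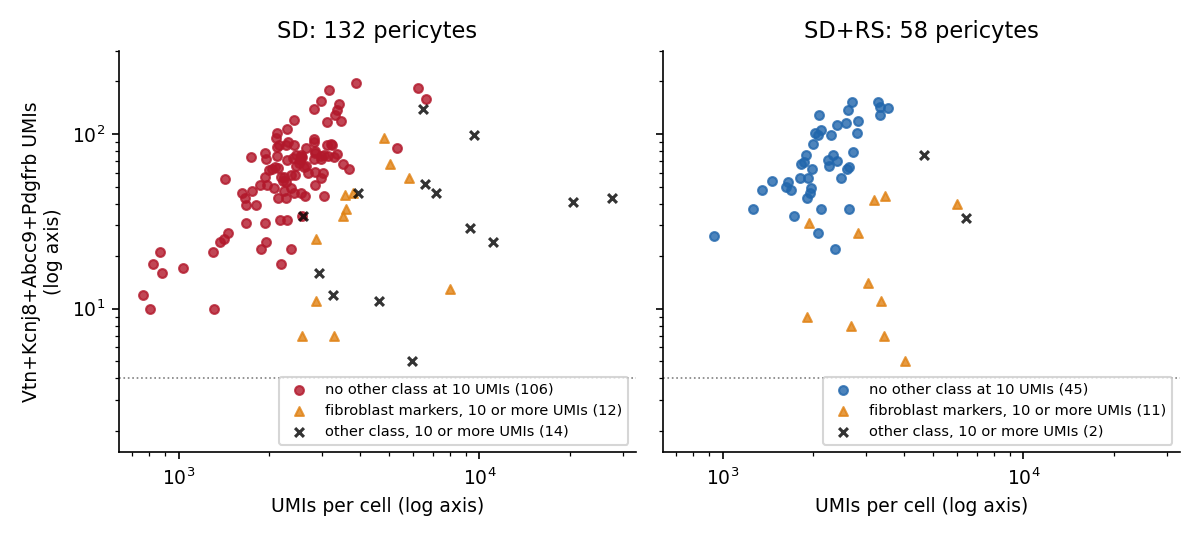
Each point is 1 pericyte, with its UMIs on the horizontal log axis and its summed UMIs of the 4 rule genes on the vertical log axis, for SD (132 cells, left) and SD+RS (58 cells, right). Circles have under 10 UMIs of every other class, triangles carry fibroblast markers, crosses carry another class, and the dotted line marks 4 UMIs. Cells with other markers lie to the right and, for fibroblast markers, lower than the main cloud.

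Pericytes and smooth muscle cells were compared within each library. There were 99 SD and 76 SD+RS smooth muscle cells with at least 10 UMIs of Acta2 and Tagln (88 and 71 without other classes). Because both groups were drawn from these expression values, the ratios are a description. Over all members, 146 genes (8.78% of 1663 measured) were past 2-fold higher in pericytes in both libraries, and 204 (12.3%) past 2-fold lower. With trimmed-mean (TMM) scaling the split became 90 higher and 314 lower, since that scaling moved every log2 ratio by -0.32 in SD and -0.40 in SD+RS. Between unmixed cells of both kinds, 127 of 1276 genes (9.95%) were past 2-fold higher and 198 (15.5%) lower.

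The genes highest in unmixed pericytes over smooth muscle included a secreted growth factor and several transporters. Ptn, the secreted growth factor pleiotrophin, stood at 9626 and 10618 CPM in SD and SD+RS pericytes against 130 and 150 CPM in smooth muscle cells, log2 ratios of 6.21 and 6.14. Atp13a5 gave 6.69 and 6.09, and Ifitm1, an interferon-inducible membrane protein, 5.96 and 7.39. Slc6a20a, a proline and imino acid transporter, gave 5.08 and 5.09, and Art3, a surface protein of the ADP-ribosyltransferase family, 5.67 and 5.98. Of the pericyte markers outside the rule, 17 of 29 measured were past 2-fold higher and 0 lower, beside 9.95% and 15.5% of all genes. List medians were 1.46 and 1.41 against -0.07 and -0.04 over all genes.

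The solute carrier list had 5 of 8 measured genes past 2-fold higher and 0 lower, beside 9.95% and 15.5% of all genes. Besides Slc6a20a and Atp13a5 these included Slc19a1, the reduced folate carrier (1.65 and 1.53), and Slc22a8, an organic anion transporter. Slc22a8 stood at 349 and 532 CPM in pericytes and had 0 and 1 UMI in smooth muscle cells. Slc19a1 stood at 960 and 1254 CPM in pericytes and 306 and 435 CPM in smooth muscle. Slc22a8 was not particular to pericytes among the vascular classes, since endothelial cells held it at 273 and 401 CPM.

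Among ion channels, 2 of 7 measured genes were past 2-fold higher in pericytes and 3 lower, beside 9.95% and 15.5% of all genes. Both higher ones are rule genes. Kcnj8 stood at 1501 and 1576 CPM against 13.6 and 16.7 CPM in smooth muscle, and Abcc9 at 818 and 953 CPM against 5.42 and 0 CPM. The 3 genes past 2-fold lower were Atp2a2, the calcium pump of the sarcoplasmic reticulum (-2.16 and -3.31), Atp2b4, a plasma membrane calcium pump (-1.80 and -2.12), and Kcnab1, a beta subunit of voltage-gated potassium channels (198 and 204 CPM in smooth muscle, 2 and 0 UMIs in pericytes).

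Receptors and second-messenger enzymes also divided by cell type, with 4 of 14 measured genes past 2-fold higher and 6 lower in pericytes, again beside 9.95% and 15.5% of all genes. Pericytes held more Tbxa2r, the thromboxane receptor (2.48 and 2.89), Pth1r, the parathyroid hormone receptor (2.19 and 2.54), and P2ry14 (2.34 and 2.22). Gucy1b1, a subunit of the soluble guanylate cyclase that senses nitric oxide, was at the limit itself, with 921 and 1315 CPM in pericytes against 461 and 645 CPM. Smooth muscle cells held more Mylk, myosin light chain kinase (-2.57 and -2.86), Rock1, a kinase that promotes contraction (-3.17 and -2.03), Ppp1r12a, a myosin phosphatase subunit (-2.34 and -3.24), and the phosphodiesterases Pde3a (-3.56 and -4.64) and Pde5a (-1.88 and -3.16). Ramp1, the receptor subunit for the vasodilator CGRP, stood at 230 and 241 CPM in smooth muscle cells and had 0 UMIs in unmixed pericytes of both libraries. Ednra, the endothelin A receptor, differed by less than 2-fold (-0.52 and -0.24).

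The contractile genes gave the clearest contrast outside the gating pair. Of 19 measured, 18 were past 2-fold lower in pericytes in both libraries, beside 15.5% of all genes, with list medians of -3.57 and -4.02. Myh11, the smooth muscle myosin heavy chain, stood at 38.4 and 20.1 CPM in pericytes against 2713 and 3190.5 CPM in smooth muscle, log2 ratios of -6.14 and -7.31. Pln, phospholamban, had 0 UMIs in unmixed pericytes of both libraries against 1369 and 1649 CPM in smooth muscle. With a floor of 3 counts per library its log2 ratios are at most -6.89 and -5.78. Tpm2, beta-tropomyosin, gave -4.93 and -4.97, while Smtn, smoothelin, was the 1 gene not past 2-fold in both libraries, with -0.96 and -1.09. Cald1, caldesmon, which is listed with the pericyte markers, was at similar levels in pericytes (2653 and 2900.5 CPM) and smooth muscle (2266 and 2120.3 CPM).

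Matrix genes divided evenly, with 3 of 12 measured past 2-fold higher and 3 lower, beside 9.95% and 15.5% of all genes. Lamc1, the laminin gamma-1 chain (1.89 and 2.36), Bgn, biglycan (1.71 and 2.02), and Sparc, a collagen-binding matrix protein (1.23 and 1.28), were higher in pericytes. Timp3, an inhibitor of matrix metalloproteinases (-1.40 and -1.85), Serpine2, a protease inhibitor (-1.35 and -2.10), and Adamts1, a matrix protease (-2.88 and -1.89), were lower. Among ligands, Il34, a cytokine for microglia, was higher in pericytes (603 and 562 CPM against 78.6 and 100 CPM), and Pdgfa (-1.65 and -1.71) and Pgf, placental growth factor (-1.66 and -2.12), were lower. Of the Notch receptors, Notch1 was past 2-fold higher (1.80 and 1.38) and Notch3 was not (0.42 and 0.23). All of the 11 mitochondrially encoded genes past 2-fold, of 12 measured, were lower in pericytes. That difference sits beside a higher mitochondrial fraction in smooth muscle cells overall (medians of 9.24% and 8.72%), and the part of cell quality in it was not tested.

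**Figure D2:**
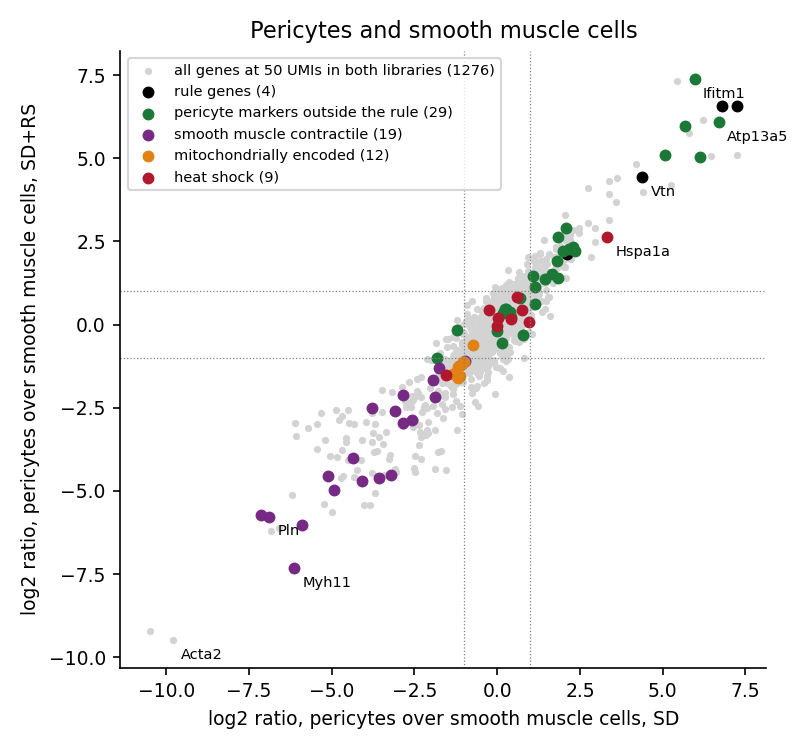
Each point is 1 of 1276 genes, with its log2 ratio of CPM in unmixed pericytes over smooth muscle cells in SD (horizontal) and SD+RS (vertical), and dotted lines mark 2-fold. Colours mark the lists named in the legend; contractile genes lie at the lower left and pericyte markers at the upper right in both libraries.

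The second comparison, recovery after deprivation against deprivation alone, depended on whether the mixed cells were counted. Over all 190 pericytes, 54 genes were past 2-fold higher in SD+RS (2.44% of the 2212 with at least 50 UMIs) and 137 lower (6.19%). The 10 lowest by the bound of the interval nearest 0 included the myelin gene Mbp, at 1193 CPM in SD and 6.82 CPM in SD+RS. In unmixed pericytes Mbp stood at 49.9 and 10.0 CPM. Likewise Apod, a lipocalin of fibroblasts, was at 1897 and 4373 CPM over all pericytes and at 161 and 60.2 CPM in unmixed ones, so its direction turned.

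In unmixed pericytes 12 of 1281 genes (0.937%) were past 2-fold higher in SD+RS and 45 (3.51%) lower, with a median log2 ratio over all genes of 0.03. In smooth muscle cells, from which cells of other classes were not removed, the counts were 10 (0.391%) and 39 (1.52%) of 2559 genes. In endothelial cells, likewise untrimmed, they were 67 (0.874%) and 342 (4.46%) of 7670. Values between libraries for these classes below are untrimmed too, so they are not like for like with unmixed pericytes. A list of 10 oligodendrocyte genes summed to 3971 and 2518 CPM in smooth muscle cells and 3932 and 1769 CPM in endothelial cells. The same list, longer than the 5 markers above, summed to 434 and 241 CPM in unmixed pericytes. Over all pericytes it summed to 12545 and 4564 CPM. The 10 lowest genes in unmixed pericytes were Hspa1a, Ptgds, Hspa1b, Rgs4, Hspa8, Cebpd, Ddit4l, Hsp90aa1, Hsp90ab1 and Hspe1, of which 6 encode heat shock proteins. The 10 highest were Dbp, Ifitm1, Pald1, Art3, Cd151, Tbxa2r, Arf1, Pth1r, Myl9 and Rgcc. For Ptgds, 1 cell supplied 76.7% of the UMIs in SD, so that value rests on that cell.

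**Figure D3:**
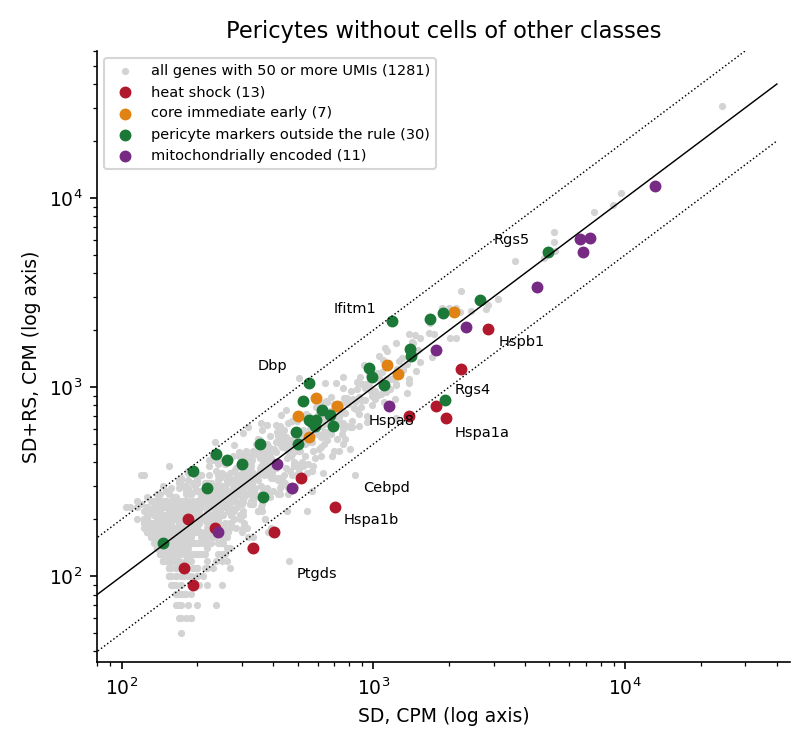
Each point is 1 of 1281 genes, with its CPM in unmixed pericytes of SD (horizontal log axis) and SD+RS (vertical log axis). The solid line marks equality and the dotted lines 2-fold. Heat shock genes lie mostly below the solid line, while the 7 core immediate early genes lie along it.

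Heat shock genes encode chaperones that are transcribed when proteins misfold, through heat shock factors bound to repeats of a short motif in their promoters. The promoters of 4 list members with lower levels in SD+RS are shown because they hold that motif. Each is the 250 bases before the RefSeq start site on GRCm38.p6, with the pairs of inverted units GAANNTTC or TTCNNGAA in capitals (each motif is its own reverse complement, so both strands are covered, and matches may overlap). Hspa1a lies at chr17:34972157-34972406 and Hspa1b at chr17:34959239-34959488, both on the minus strand, Hspe1 at chr1:55087898-55088147 and Hspb1 at chr5:135887669-135887918, both on the plus strand.
Hspa1a: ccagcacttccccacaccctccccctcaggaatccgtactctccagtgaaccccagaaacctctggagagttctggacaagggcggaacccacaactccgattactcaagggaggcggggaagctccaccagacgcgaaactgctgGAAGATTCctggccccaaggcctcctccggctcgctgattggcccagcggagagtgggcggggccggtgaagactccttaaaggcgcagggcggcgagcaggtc
Hspa1b: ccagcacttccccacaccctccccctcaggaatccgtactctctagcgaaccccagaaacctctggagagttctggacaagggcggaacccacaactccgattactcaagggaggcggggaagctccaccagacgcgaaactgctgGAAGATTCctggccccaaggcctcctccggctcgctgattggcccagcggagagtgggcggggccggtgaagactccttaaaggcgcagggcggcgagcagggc
Hspe1: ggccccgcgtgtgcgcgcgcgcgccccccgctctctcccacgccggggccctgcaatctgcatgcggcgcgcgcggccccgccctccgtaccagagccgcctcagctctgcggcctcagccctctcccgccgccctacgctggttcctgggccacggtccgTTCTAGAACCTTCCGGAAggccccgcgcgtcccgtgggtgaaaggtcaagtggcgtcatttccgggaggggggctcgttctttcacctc
Hspb1: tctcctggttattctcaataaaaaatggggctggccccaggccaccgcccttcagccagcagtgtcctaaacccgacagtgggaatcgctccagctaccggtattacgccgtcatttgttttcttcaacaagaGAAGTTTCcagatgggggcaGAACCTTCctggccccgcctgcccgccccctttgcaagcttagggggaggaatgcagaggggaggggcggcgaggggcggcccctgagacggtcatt
The Hspa1a and Hspa1b promoters differ at 3 of 250 bases and carry the motif at the same place, whereas the Hspe1 promoter holds 3 overlapping matches in 1 block. At least 1 match was present in 10 of 25 promoters of the list (9 of 19 genes with an entry) and in 12.8% of all 32851 promoters. A match describes letters and is not a bound site.

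Hspa1a and Hspa1b (chr17:34969190-34972156 and chr17:34956436-34959238, minus strand) encode inducible HSP70 in near-identical copies, so reads could be divided between them with some uncertainty. Hspa1a stood at 1943 CPM (1777 to 2119.6) in SD and 682 CPM (530 to 865) in SD+RS unmixed pericytes, for a log2 ratio of -1.51 (-1.90 to -1.14). Hspa1b stood at 703 and 231 CPM, for a log2 ratio of -1.61 (-2.30 to -0.98). The copies thus differed between the libraries by a similar amount. Over all pericytes, Hspa1a was at 1272 and 498 CPM and Hspa1b at 493 and 157 CPM, the same direction at lower levels.

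The other chaperone genes named here had ratios below 0 as well. Hspa8, the constitutive HSC70, stood at 1766 and 793 CPM, for a log2 ratio of -1.16 (-1.52 to -0.81), and was found in 96.2% and 75.6% of cells (97.5% and 76.1% after thinning). Hsp90aa1 and Hsp90ab1, the cytosolic HSP90 pair, stood at 1386 and 703 CPM and at 2231 and 1244 CPM, log2 ratios of -0.98 and -0.84. Hspe1, the mitochondrial co-chaperonin, and Dnajb1, an HSP40 that works with HSP70, gave log2 ratios of -1.24 and -1.25. Hspb1, the small heat shock protein HSP27, was at 2860.4 and 2027 CPM, a smaller difference of -0.50. Cryab, alpha-B crystallin, gave -0.37 with an interval that includes 0, although it was -3.29 over all pericytes.

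As a group, 6 of the 13 heat shock genes measured in unmixed pericytes were past 2-fold lower in SD+RS, beside 3.51% of all genes, and 0 were higher, with a median log2 ratio of -0.98 against 0.03 for all genes. Summed over all 24 genes of the list, the level was 13899 CPM in SD and 7467 CPM in SD+RS (-0.90, -1.01 to -0.78), and among unmixed cells with Xist UMIs only the ratio was -0.76. Heat shock genes were also high in endothelial cells. In unmixed pericytes 4 endothelial markers summed to 134 and 20.1 CPM. A longer list of 16 endothelial genes summed to 1755 and 1475 CPM there (-0.25, -0.53 to 0.02). The part of endothelial RNA in the heat shock ratio was not tested. Cell by cell, the heat shock sum ran from 2856 to 33534 CPM with a median of 12953 in SD, and from 3427 to 13039 CPM with a median of 7532 in SD+RS. The cells overlapped, but the upper part of the SD range had no counterpart in SD+RS. In smooth muscle cells 2 of 14 measured list genes were past 2-fold lower (median -0.67, 1.52% of all genes), and in endothelial cells 8 of 23 (median -0.66, 4.46% of all genes). The list median was thus below 0 in each vascular class, though not every gene was lower, and whether pericytes differ from the others was not tested. By gene, Hspa1a gave -0.85 in smooth muscle, where its level was 190 and 105 CPM, and -1.34 in endothelial cells at 1423 and 562 CPM. Its near-identical copy Hspa1b went the other way in smooth muscle, at 32.8 and 78.9 CPM (1.27, 0.31 to 2.28), where it was under 50 UMIs and so is not among the 14.

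**Figure D4:**
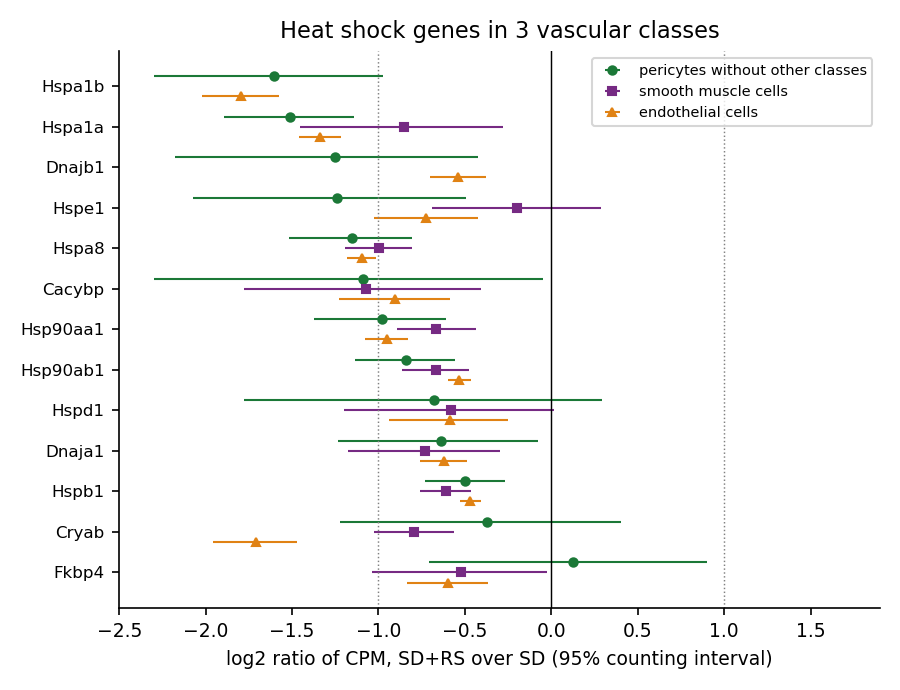
Points give the log2 ratio of CPM in SD+RS over SD for the 13 heat shock genes measured in pericytes, with 95% counting intervals as bars and dotted lines at 2-fold. Unmixed pericytes (circles), smooth muscle cells (squares) and endothelial cells (triangles) are drawn where the gene had at least 50 UMIs. Smooth muscle and endothelial cells include cells with markers of other classes. Hspa1b and Hspa1a have the lowest ratios in pericytes, at -1.61 and -1.51.

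Rgs4, a regulator of G protein signalling found in mural cells, stood at 1916 CPM (1752 to 2092) in SD and 853 CPM (681 to 1055) in SD+RS, a log2 ratio of -1.17 (-1.52 to -0.83). It was found in 95.3% and 80% of unmixed pericytes (96.6% and 83.2% after thinning). In smooth muscle cells Rgs4 was at 1020 and 984 CPM, a ratio of -0.05 (-0.26 to 0.15). In endothelial cells, where Rgs4 was low at 18.6 and 6.70 CPM, the ratio was -1.48 (-2.78 to -0.37). Its relative Rgs5 gave 0.06 (-0.09 to 0.21) in pericytes, less than 2-fold by the whole interval.

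Cebpd, a stress-responsive transcription factor, stood at 845 and 341 CPM in pericytes, a log2 ratio of -1.31 (-1.87 to -0.78), and was at 0 in 22.6% of SD pericytes and in 55.6% of those in SD+RS. After thinning it was found in 72.5% and 44.6% of pericytes, and in 0.413% and 0.272% of neurons. In smooth muscle Cebpd gave 0.10 (-0.32 to 0.51), and in endothelial cells -0.76. Ddit4l, an inhibitor of mTOR signalling, stood at 545 and 221 CPM in pericytes (-1.30, -2.02 to -0.65) and gave 0.13 in smooth muscle. In endothelial cells Ddit4l was at 11.5 and 5.86 CPM, with a ratio of -0.98 (-2.43 to 0.26). Gadd45b, a stress sensor, and Nfkbia, the NF-kappa-B inhibitor, gave -1.12 (-1.93 to -0.38) and -1.05 (-2.08 to -0.15) on few UMIs. These 3 transcripts of the early response list, Cebpd, Gadd45b and Nfkbia, were its only members of 16 measured past 2-fold, beside 3.51% of all genes lower. The list median was -0.34.

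Angptl4, a secreted inhibitor of lipoprotein lipase that glucocorticoids and hypoxia induce, had 45 UMIs in SD unmixed pericytes (173 CPM) and 0 in SD+RS, at least 2.52 lower on the log2 scale with a floor of 3 counts in SD+RS. It was below the minimum of 50 UMIs there and is not among the counts above. Over all pericytes Angptl4 stood at 153 and 27.3 CPM. Adm, which encodes the vasodilator peptide adrenomedullin and was the 1 of 12 hypoxia genes past 2-fold, stood at 173 and 60.2 CPM in unmixed pericytes (-1.52, -3.04 to -0.29) but at 141 and 136 CPM over all of them. The glucocorticoid list as a whole had 0 of 7 measured genes past 2-fold higher and 2 lower, which were Cebpd and Nfkbia. Over all genes the shares past 2-fold were 0.937% higher and 3.51% lower. The list median was -0.02, but its sum gave -0.29 (-0.48 to -0.10). Over all pericytes 12 of 13 measured genes were below 0, with a median of -0.54 and a sum of -0.48 (-0.62 to -0.34). In smooth muscle cells 12 of 13 were below 0 (median -0.54), and in endothelial cells 19 of 20 (median -0.41).

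Immediate early genes, which cells transcribe within minutes of a stimulus, were present in pericytes of both libraries and differed by less than 2-fold between them. Fos stood at 2092 CPM (1920.5 to 2276) in SD and 2479 CPM (2179 to 2808) in SD+RS unmixed pericytes, against 47.1 and 50.5 CPM in neurons. Jun, counted with the other early genes, was at 3114 and 2921 CPM. Junb stood at 1133 and 1305 CPM and Egr1 at 718 and 793 CPM. None of the 7 core genes measured was past 2-fold (the background for either direction was 4.45% of genes), and the 14 genes of the list summed to 6984 and 8039 CPM, for a log2 ratio of 0.20 (0.08 to 0.32). The same sum was 8056 and 7454 CPM in smooth muscle cells and 15020 and 14593 CPM in endothelial cells. The largest ratios were those of Dusp1, a MAP kinase phosphatase (0.56, 0.17 to 0.95), and Ier2 (0.48, 0.04 to 0.91).

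Single pericytes varied widely in these genes within each library. The core immediate early sum ran from 0 to 25478 CPM with a median of 6997 in SD, and from 0 to 27862 CPM with a median of 6813 in SD+RS. It was at 0 in 7 of the 106 SD cells and 1 of the 45 SD+RS cells. Over all 190 pericytes the sum was 4879 and 6692 CPM (0.46), a larger ratio than in unmixed cells.

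**Figure D5:**
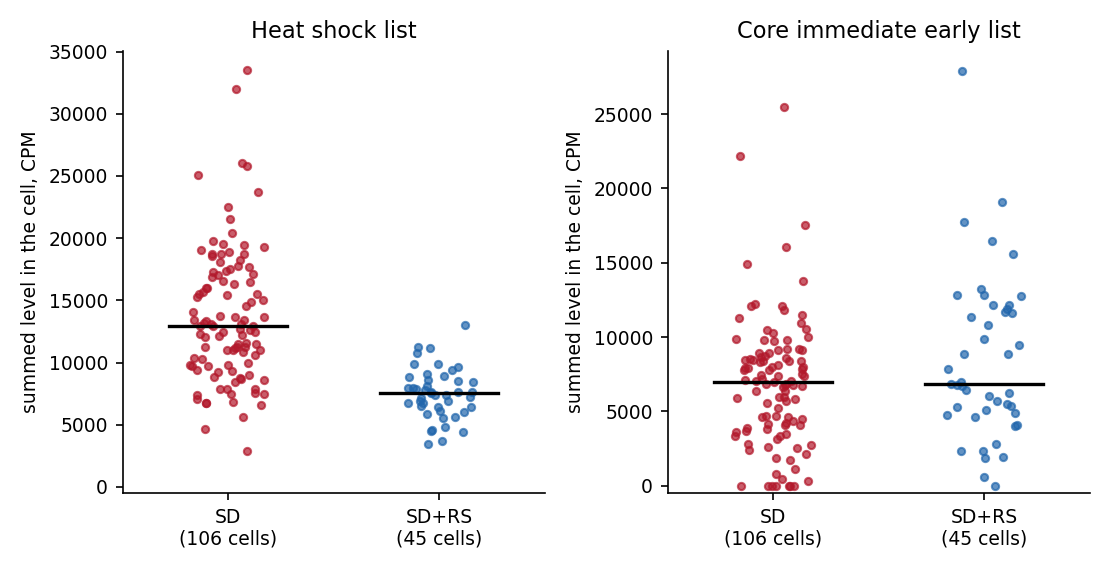
Each point is 1 unmixed pericyte, with the summed level of the heat shock list (left) or the core immediate early list (right) in CPM of that cell, and the black bar is the median over 106 SD or 45 SD+RS cells. The heat shock sums reach higher in SD than in SD+RS, and the immediate early sums overlap throughout.

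Among genes higher after recovery, Dbp, an output transcription factor of the circadian clock, stood at 507 CPM (424 to 601) in SD and 1114 CPM (916 to 1342) in SD+RS, a log2 ratio of 1.14 (0.76 to 1.51). It was found in 62.3% and 80% of unmixed pericytes (59.7% and 83.9% after thinning). Dbp gave 0.67 in smooth muscle and 1.63 in endothelial cells, so its direction was the same in all 3. The labels do not state the time of day, so it cannot be told apart from recovery. Of the other clock genes measured, Nr1d1 was at 161 and 151 CPM (-0.10) and Tef at 150 and 171 CPM (0.19). Dbp was thus the 1 of 5 clock genes past 2-fold, beside 0.937% of all genes higher.

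Rbm3, an RNA-binding protein induced by cooling, stood at 123 CPM in SD and 341 CPM in SD+RS (1.47, 0.73 to 2.22), on 32 and 34 UMIs. It gave 1.11 in smooth muscle and 1.23 in endothelial cells. Srsf5, the other measured member of that small list, was at 634 and 632 CPM, so 1 of 2 was past 2-fold, beside 0.937% of all genes higher. Cirbp, the remaining member, was under 50 UMIs in unmixed pericytes and so is not counted. It stood at 73 and 231 CPM there (1.66, 0.72 to 2.62), and gave 0.96 in smooth muscle and 1.72 in endothelial cells.

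Several genes that mark pericytes were higher in SD+RS by less than 2-fold. Ifitm1 stood at 1183 CPM (1054 to 1322) and 2238 CPM (1954 to 2552), a log2 ratio of 0.92 (0.67 to 1.17), and at 15.3 and 14.6 CPM in smooth muscle. Art3 stood at 553 and 1054 CPM (0.93, 0.55 to 1.30), and Cd248, the membrane protein endosialin, at 238 and 442 CPM. Of the 30 markers outside the rule that were measured, 0 were past 2-fold higher and 1, Rgs4, lower. These shares were 0.937% and 3.51% over all genes, and the list median was 0.22. Vtn, which chose the cells, was at 24131 and 30661 CPM. More RNA of these genes per cell and less of other RNA cannot be told apart in values scaled to each cell's total.

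Of the 10 measured genes of the list of receptors and effectors of vessel tone, 0 were past 2-fold either way, beside 4.45% of all genes. Of the 10, 5 were above and 5 below 0, with a median of -0.02. Among those above 0, Tbxa2r stood at 303 and 572 CPM (0.92, 0.40 to 1.43), Pth1r at 641 and 1054 CPM (0.72, 0.35 to 1.08) and Gucy1b1 at 921 and 1315 CPM (0.51, 0.19 to 0.83). In smooth muscle these 3 genes gave 0.73, 0.47 and 0.43, the same direction, and in endothelial cells 0.55, -0.43 and -0.84. The channel list had 0 of 6 past 2-fold, with a median of 0.03, and 2 of the 6, Kcnj8 and Abcc9, are genes that chose the cells.

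Signalling, matrix and metabolic lists had few genes past 2-fold. The shares over all genes were 0.937% higher and 3.51% lower, and in lists this small 1 or 2 genes weigh heavily. Notch signalling had 1 of 6 measured genes past 2-fold, the ligand Jag1 (104 and 231 CPM, 1.15, 0.29 to 2.01), while the pericyte receptor Notch3 was at 672 and 713 CPM. The TGF-beta list had 0 of 4 past 2-fold (median 0.30), the PDGF list 0 of 3, chemokines 0 of 4 and interferon genes 0 of 6 (median 0.31). In the contractile list, 2 of 9 were past 2-fold lower, Tpm1, alpha-tropomyosin, at 323 and 141 CPM (-1.20, -2.13 to -0.37) and Casq2, the calcium-binding protein calsequestrin, at 184 and 70.3 CPM, while Myl9, a myosin light chain, was at 2235 and 3202 CPM. The matrix list had 1 of 11 past 2-fold lower, the type IV collagen chain Col4a2 (173 and 80.3 CPM), while its partner Col4a1 was at 357 and 301 CPM and Nid1, nidogen, at 472 and 281 CPM (-0.75, -1.40 to -0.15). Slc6a13, a GABA and taurine transporter, was the 1 of 10 solute carriers past 2-fold, lower at 380 and 171 CPM in unmixed pericytes but higher at 507 and 846 CPM over all pericytes. In the fibroblast-marker cells Slc6a13 was at 1992 and 2958 CPM. Unfolded protein response genes had 0 of 9 past 2-fold, but all 9 were below 0, with a median of -0.59 and a ratio of -0.40 (-0.60 to -0.20) for the sum of the list. Mitochondrially encoded genes summed to 44630 and 37716 CPM (-0.24).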

How the data were processed

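Single-cell libraries of the preoptic area from 1 pool of mice per group were analysed. The authors deposited UMI counts per gene and cell, made with Cell Ranger 3.0.2 on mm10 per the submitters' processing notes, and cluster marker tables with p-values, natural log fold changes and fractions of cells, for which Seurat 4.0.4 is named. The deposited tables do not tie cells to clusters, so pericytes were chosen by a marker rule. The members, the gene lists and the tests were chosen with earlier results of these data known. The SD library held 10262 barcodes and 132191585 UMIs, and the SD+RS library 8106 and 123500649. Cells were kept at 500 genes or more and below 20% mitochondrial UMIs.

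UMIs were summed over the cells of a class in each library and divided by their total to give CPM, with exact Poisson intervals. Ratios have exact conditional binomial intervals and shares exact Clopper-Pearson intervals, all at 95% and for counting error only. With 1 library per group there is no test and no p-value was computed. Genes past 2-fold were counted among those with at least 50 UMIs over the groups compared, and a count of 0 was set to a floor of 3 counts per library for a bound. Between libraries the 10 highest and 10 lowest genes by the bound nearest 0 (at least 100 UMIs) and up to 4 per list were named, and against smooth muscle the 12 highest and 12 lowest. Members of small families were also named by level. Smooth muscle cells had at least 10 UMIs of Acta2 and Tagln, endothelial cells at least 10 of Cldn5 and Ly6c1, and neurons at least 10 of Snap25 and Syt1, each with the other exclusions. A simulation-based score marked 605 (6.13%) and 279 (3.62%) cells as doublets, of which 4 SD and 0 SD+RS pericytes, and marked cells were kept. The ratio script was tested on simulated counts. Tools were Python 3.11.15, numpy 2.4.6, scipy 1.17.1, pandas 2.3.3, scikit-learn 1.9.0 and, for TMM scaling, edgeR 4.0.16 in R 4.3.3. Gene coordinates are from GENCODE M21 and promoters from RefSeq on GRCm38.p6. Values were recomputed under 15 other settings and under 6 more chosen after these results were seen.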

Additional observations from a re-analysis of the deposited data

How the results depend on the processing

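Leaving out cells of other classes, an alternative chosen after seeing the data, moved 28 gene ratios past their counting interval, reversed 1 and left 73 within it. The 1 is Itih5, and the sign changes of Apod, Slc6a13 and Spp1 given below are not in it. Fewer genes are counted in this setting than the 139 under TMM scaling. The SD proportion of pericytes was 1.07% without those cells and 1.08% with each exclusion sum at most 1 UMI. The 54 genes past 2-fold higher in SD+RS became 12 without other classes, and then 17 with every cell weighted equally, 7 with Xist cells only, 10 with median-ratio scaling and 2 at 100 UMIs per gene. Over all pericytes they became 252 at 20 UMIs, 14 at 100 UMIs and 29 with Xist cells only. The 137 lower genes became 45 without other classes, and then 45, 21, 53 and 14 in the same order, with 90 at exclusion sums of at most 1, 575 at 20 UMIs, 52 at 100 UMIs and 48 with Xist cells only. The heat shock sum (-1.15 over all pericytes) was -1.03 without the deepest cell, -0.95 with equal weights, -0.90 without other classes, and -0.87, -0.76 and -0.92 for the last with equal weights, Xist cells and median-ratio scaling. The cold-inducible sum (0.83) was 0.54 without other classes, then 0.51, 0.44 and 0.51. The immediate early sum (0.46) was 0.34 at 3 UMIs of the rule genes, 0.22 at 2000 UMIs per cell, 0.22 with Xist cells, and 0.20 without other classes, then 0.31, 0.076 and 0.18. Slc4a4 turned to 0.53 at 3 UMIs, and Itih5 turned to -0.16 without other classes, then -0.32, -0.53 and -0.19. Against smooth muscle, the 146 higher genes became 90 with TMM, 378 at 20 UMIs, 71 at 100 UMIs, 97 for unmixed Xist cells and 62 for unmixed cells at 100 UMIs. The 204 lower ones became 314, 323, 117 and 117 (unmixed cells at 100 UMIs), and 383 for smooth muscle cells by Acta2 and Tagln alone. Where settings only change how many genes are measured, that sets the counts, and otherwise the cause was not tested. Apod (1.20 to -1.42), Slc6a13 (0.74 to -1.16) and Spp1 (0.88 to -0.85) also changed sign without other classes. Counted over genes and settings, 2220 ratios between libraries stayed within their counting interval and 218 moved by more. The 5 counted as reversed are the Slc4a4 and Itih5 values above, so the sign changes of Apod, Slc6a13 and Spp1 come on top of them. No paired analysis was possible because each group is 1 library. Fewer cells in SD+RS limit its precision.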

Other observations

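In the authors' deposited table for SD, the rule genes appear in cluster 26, where Cldn5, an endothelial gene, was found in 70.7% of cells, Rgs5 in 70.7%, Vtn in 56.9%, Pdgfrb in 46.6%, Kcnj8 in 32.8%, Abcc9 in 31.0% and Acta2 in 13.8%. In the authors' deposited table for SD+RS, only Vtn of the rule genes is listed, in cluster 30, with 18.5% of cells beside Rgs5 at 48.1% and Cldn5 at 63.0%. In the authors' deposited table for both libraries, cluster e4 had Vtn in 47.0% of cells, Rgs5 in 51.5%, Pdgfrb in 51.5%, Abcc9 in 28.8%, Kcnj8 in 25.8% and Acta2 in 19.7%. In the authors' deposited table for both libraries, cluster i17 had Cldn5 in 100% of cells, Rgs5 in 67.3% and Vtn in 38.8%. These shares are over the authors' clusters, not over the cells used here.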
